A study of Brassica napus with 11 samples.

Results

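The transcripts described here are those listed at a higher level in the whole funiculus (WF) of *Brassica napus* than in any of its separately dissected tissues. They were chosen by their FPKM (fragments mapped to a transcript, scaled by its length and by the mapped reads of the library): the lower value of WF1 and WF3 had to be at least 10 FPKM and at least 2 times the highest of the 8 tissue libraries. Of 97902 transcripts in the table, 6444 reached 10 FPKM in both WF1 and WF3, and 4 of these met the rule (0.0621%). The 4 are BnaC05g17490D, BnaCnng05710D, BnaA03g39700D and BnaA09g48260D. All 4 were listed at 0 in every epidermis, cortex and vasculature library. Each of their WF values above 0 corresponds to 1 or 2 sequenced fragments, with no more than 4 of a transcript in WF1 and WF3 together. These numbers were read from the steps between values, and are the smallest whole ones that fit. The values thus follow the rule, which chose on them, and rest on few fragments. A level difference between whole funiculus and tissues was not tested.

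The study profiled funiculi of canola cv. Topaz, line DH4079, from siliques at the globular stage of the embryo, 7 days after open flowers were pollinated. Tissue pieces were cut by laser microdissection from paraffin sections and pooled over several plants into 3 epidermis, 2 cortex, 3 vasculature and 3 whole funiculus libraries, all of the same line, stage and treatment. The whole funiculus served as the control for the tissues. The rule did not use WF2, which the study also left out.

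The funiculus is the stalk that joins the developing seed to the fruit. A central vascular strand of xylem and phloem carries water and assimilates through it, surrounded by a parenchymatous cortex and an epidermis. A whole funiculus piece holds all of these cell types at once, so that a transcript of any tissue is diluted by the RNA of the others. *B. napus* carries an A and a C subgenome from its diploid parents, and its gene identifiers give the subgenome and the chromosome. BnaA03g39700D and BnaA09g48260D lie on chromosomes of the A subgenome, BnaC05g17490D lies on one of the C subgenome, and the name of BnaCnng05710D gives the C subgenome with no chromosome. None of the 4 identifiers has a gene name or a function in the sources used here. In bulk libraries, fewer cells of a type and less RNA per cell cannot be told apart.

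The levels of 1 marker for each tissue are given here. These came from transcripts that the study had picked on these libraries, so their tissue preference is no test of the dissection. Each was also found in WF1 and WF3. The lipid transfer protein gene *LTP2* (BnaAnng27610D), which is known from the epidermis, was at 1610 to 3253 FPKM in the epidermis, 158 to 605 FPKM in the cortex and 0.684 to 13.4 FPKM in the vasculature. In the vasculature, *PP2-A1* (BnaA01g34970D), which encodes a lectin of the phloem, ranged from 415 to 546 FPKM, and it was at most 21.2 FPKM elsewhere in the tissues. In the cortex, *TIP1;1* (BnaAnng24130D), which encodes an aquaporin of the vacuole, ranged from 35.2 to 52.3 FPKM, and it was at most 6.55 FPKM in the other tissues. In WF1 and WF3, *LTP2* was at 334 and 335 FPKM, *PP2-A1* at 281 and 242 FPKM and *TIP1;1* at 14.3 and 12.5 FPKM. WF2 stood apart: 868 transcripts at 10 FPKM or more in every other library were listed at 0 in it, against 0 to 3 such transcripts, leaving WF2 aside, in each of the others.

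BnaC05g17490D had the highest lower value of the 4. It was at 23.1 FPKM in WF1 and 17.5 FPKM in WF3, and it was listed at 0 in WF2, in epidermis 1, 2 and 3, in cortex 1 and 2 and in vasculature 1, 2 and 3. BnaCnng05710D was at 13.7 FPKM in WF1 and 20.8 FPKM in WF3, and it too was listed at 0 in WF2 and in each of the 8 tissue libraries. These 2 transcripts were thus found only in the libraries that the rule read.

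BnaA03g39700D was at 14.9 FPKM in WF1, 60.7 FPKM in WF2 and 11.3 FPKM in WF3, and was listed at 0 in each epidermis, cortex and vasculature library. BnaA09g48260D was at 13.4 FPKM in WF1, 27.3 FPKM in WF2 and 10.2 FPKM in WF3, again with 0 in all 8 tissue libraries. For these 2, the library that the rule had not used was the highest of the 3 in FPKM, but not in fragments. WF2 held 1 fragment of each, no more than WF1 or WF3 did. A fragment was worth 5.3653 times as much in WF2 as in WF3. By construction the WF1 and WF3 values of the 4 transcripts do not overlap with the tissue values, so no test of that difference was made.

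**Figure D1:**
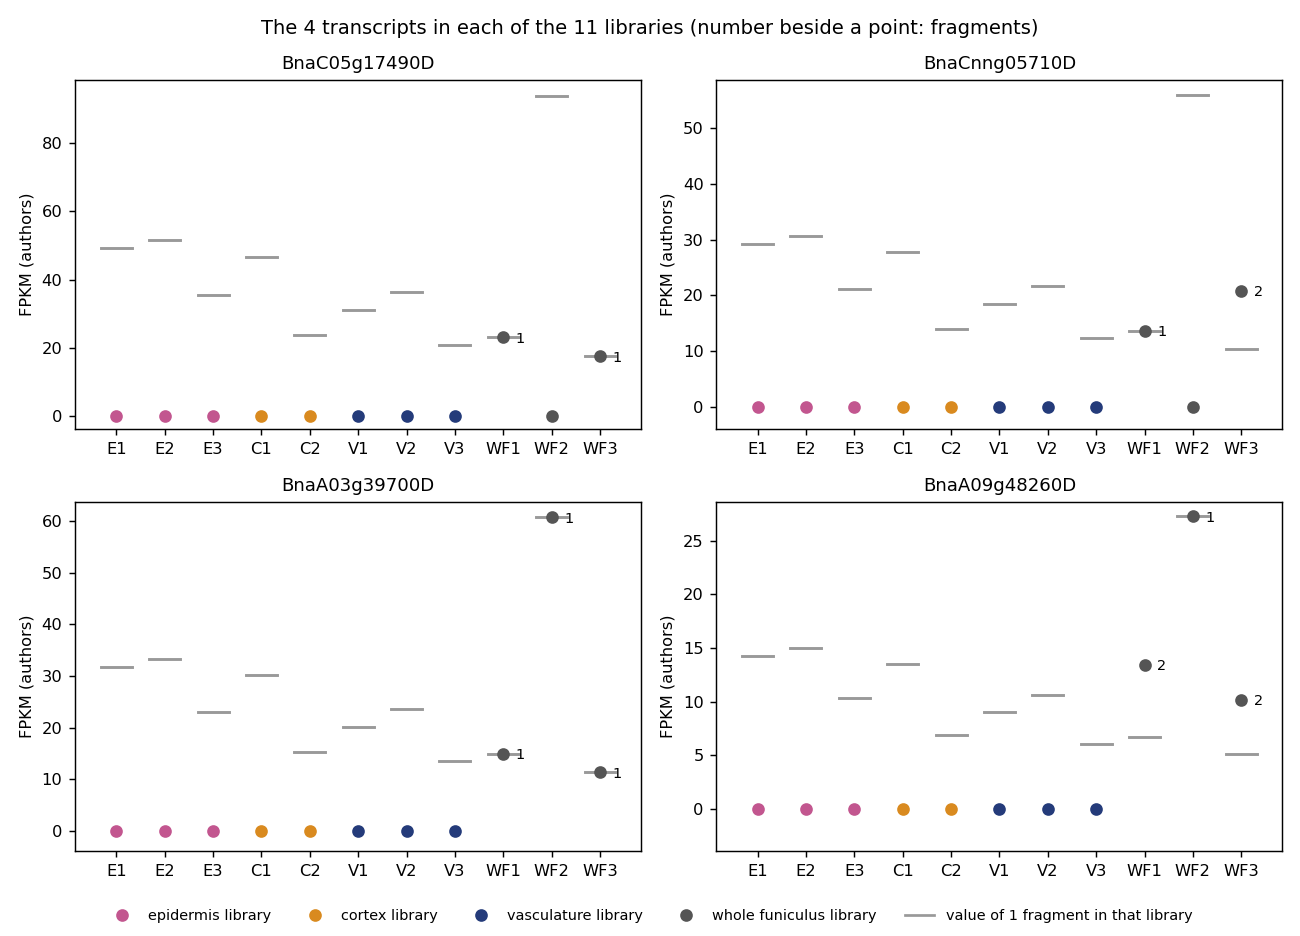
FPKM (vertical axis) of the 4 transcripts in epidermis (E), cortex (C), vasculature (V) and whole funiculus (WF) libraries, 1 point a library, with a grey bar at the value that 1 fragment would have there and the number of fragments beside each point above 0. All tissue points lie at 0, and the points above 0 lie at 1 or 2 times the bar of their library.

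The levels of the 4 transcripts came in exact steps. Where whole fragments are counted, a transcript can only take values that are whole multiples of what 1 fragment is worth in that library, and with single-end reads 1 fragment is 1 read. Over other transcripts detected in few libraries, the commonest quotient of a WF1 to a WF3 value was 1.31778, since 1 fragment counts for more in the shallower library. BnaC05g17490D, BnaA03g39700D and BnaA09g48260D each had a WF1 to WF3 quotient of 1.31778, and BnaCnng05710D had 0.658888, the quotient of 1 fragment in WF1 and 2 in WF3. For WF2 and WF3 the commonest quotient was 5.3653. BnaA03g39700D had a WF2 to WF3 quotient of 5.36532 and BnaA09g48260D one of 2.68266, which corresponds to 1 fragment in WF2 and 2 in WF3.

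The smallest whole numbers that give these values are 1 fragment in WF1 and 1 in WF3 for BnaC05g17490D, 1 and 2 for BnaCnng05710D, 1 in each of WF1, WF2 and WF3 for BnaA03g39700D, and 2 in WF1, 1 in WF2 and 2 in WF3 for BnaA09g48260D. No value of the 4 was farther than 6.37e-06 fragments from a whole number. A common multiple of these numbers would give the same quotients, and the deposited table does not list the fragments themselves. All fragment numbers, intervals and limits given here use the smallest numbers. Reads that fit near-identical copies of a gene may also have been shared between them.

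A single fragment was worth far more in these transcripts than in most that could be resolved into whole fragments. In WF3 it stood for 17.5 FPKM in BnaC05g17490D, 11.3 FPKM in BnaA03g39700D, 10.4 FPKM in BnaCnng05710D and 5.09 FPKM in BnaA09g48260D. The median over the 24677 transcripts whose values could be resolved into whole fragments was 0.182 FPKM, and the values of the 4 were 96.3, 62.2, 57.2 and 28.0 times that median. The 4 ranked 126, 175, 205 and 414 from the top by this measure. A value at least as large as that of BnaA09g48260D was found in 426 resolved transcripts. Of these, 84 were at 10 FPKM or more in both WF1 and WF3, the 4 included. As FPKM divides by transcript length, a large step goes with a short effective length, and the lengths themselves are not in the table.

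**Figure D2:**
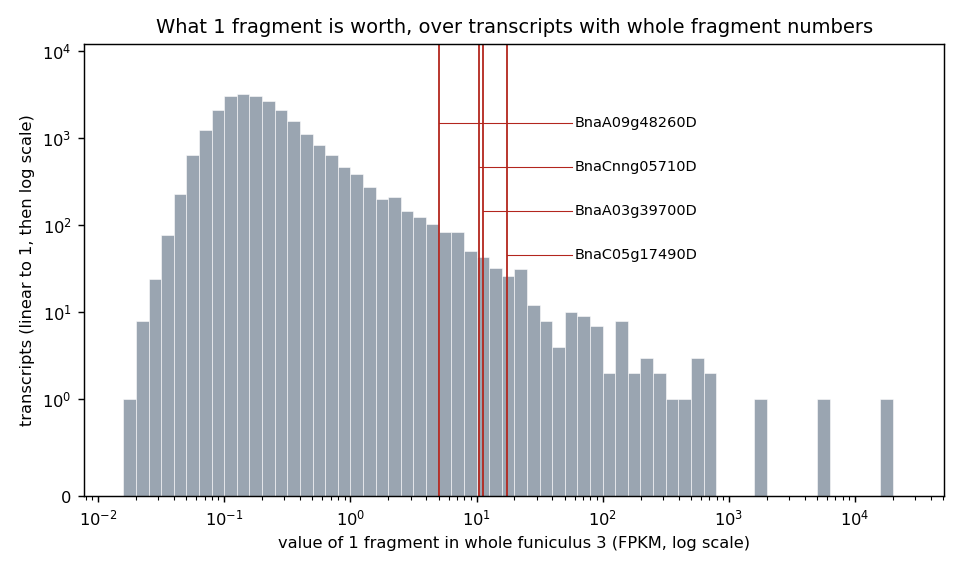
Number of transcripts (vertical axis, linear to 1 and then log scale) by the value of 1 fragment in WF3 (horizontal axis, FPKM, log scale), for 24677 transcripts with whole fragment numbers. Red lines mark the 4 transcripts, at 5.09 to 17.5 FPKM, against a median of 0.182 FPKM.

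All tissue libraries were shallower than WF3, and all but vasculature 3 were shallower than WF1, so that a single fragment there would have been listed at a high level. The study's own summary of read alignments was not used for this. Depth was read as the inverse of the value of 1 fragment, as the table does not list it. Relative to WF3, it was 0.340 to 0.739 in the epidermis, the cortex and vasculature 1 and 2. It was 0.838 in vasculature 3, 0.759 in WF1 and 0.186 in WF2. The WF2 figure is the least certain: 13.5% of the transcripts used shared its quotient, against 32.5% to 43.8% in the others. For BnaC05g17490D, 1 fragment would have been worth 20.9 FPKM in vasculature 3, the deepest tissue library, and 51.5 FPKM in epidermis 2, the shallowest. The range was 13.5 to 33.3 FPKM for BnaA03g39700D, 12.4 to 30.6 FPKM for BnaCnng05710D and 6.07 to 15.0 FPKM for BnaA09g48260D. With 1 fragment in any 1 of the 8 tissue libraries, none of the 4 would have met the rule. A transcript with 1 fragment in vasculature 3 meets it only with at least 2 fragments in WF1 and 3 in WF3.

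The levels that a value of 0 leaves room for in a tissue lay above the WF1 and WF3 values for BnaC05g17490D and BnaA03g39700D, and in part below them for the other two. Taking 3 fragments as the most that a count of 0 allows, and covering counting error only, the limit for BnaC05g17490D was 44.2 FPKM over the 3 epidermis libraries, 47.1 FPKM over the 2 cortex libraries and 27.9 FPKM over the 3 vasculature libraries. For BnaA03g39700D the limits were 28.6, 30.5 and 18.1 FPKM in the same order. For BnaCnng05710D they were 26.3, 28.0 and 16.6 FPKM, and the vasculature limit was below its value of 20.8 FPKM in WF3 and above that of 13.7 FPKM in WF1. The limits of BnaA09g48260D were 12.8 FPKM in the epidermis, 13.7 FPKM in the cortex and 8.11 FPKM in the vasculature, of which the epidermis limit was below its value of 13.4 FPKM in WF1 and the vasculature limit was below both this value and that of 10.2 FPKM in WF3. In WF2, 3 fragments would be worth 282 FPKM for BnaC05g17490D and 168 FPKM for BnaCnng05710D, so the zeros there do not set them apart from WF1 and WF3.

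With all 8 tissue libraries pooled the limits were lower, and each lay inside the Poisson interval of the pooled WF level. The pool weights the tissues by depth, not by their share of a funiculus. By the same reading of depth, the tissue libraries together held 2.38 times as many fragments as WF1 and WF3 together. For BnaC05g17490D, 2 fragments in WF1 and WF3 (exact 95% Poisson interval 0.242 to 7.22) correspond to a pooled level of 19.9 FPKM (2.41 to 71.9), against a limit of 12.6 FPKM in the pooled tissues. The pooled level was 12.9 FPKM (1.56 to 46.5) for BnaA03g39700D with 2 fragments, against a limit of 8.12 FPKM. It was 17.8 FPKM (3.66 to 51.9) for BnaCnng05710D with 3 fragments, against 7.46 FPKM. BnaA09g48260D had 4 fragments (1.09 to 10.2), a pooled level of 11.6 FPKM (3.15 to 29.6) and a limit of 3.65 FPKM. At their pooled WF levels the 8 tissue libraries would have held 4.76 fragments of BnaC05g17490D and of BnaA03g39700D, 7.14 of BnaCnng05710D and 9.52 of BnaA09g48260D. The rule required the tissues to be low and WF1 and WF3 to be high. The 0 fragments, the limits and the intervals are thus a description and carry no test. The intervals do not keep their nominal 95%.

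WF2 gave the only values that the rule had not read. In WF2, 2 of the 4 transcripts were above the highest tissue library and 2 were listed at 0. Of the other 6440 transcripts at 10 FPKM or more in WF1 and WF3, 545 were above their highest tissue library in WF2 (8.46%) and 1879 were listed at 0 in it (29.2%). For the 4 transcripts any single fragment in WF2 lies above tissue values of 0, whereas the others had to exceed a tissue value, so the shares are not measured alike. Among the 123 transcripts at 0 in all tissues and above 0 in both WF1 and WF3, which include the 4, 41 were above 0 in WF2. BnaA03g39700D and BnaA09g48260D had 1 fragment each in WF2, and its divergence from WF1 and WF3 limits what these fragments show; its part in them was not tested.

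Transcripts at 0 in all tissues and above 0 in both WF libraries were few, and nearly all were low. Altogether, 34645 transcripts were listed at 0 in all 8 tissue libraries. Of these, 33035 were also at 0 in WF1 and WF3, 518 were above 0 in WF1 alone and 969 in WF3 alone, and 123 in both. The lower value of WF1 and WF3 had a median of 0.311 FPKM over the 123, and 23 of them reached 1 FPKM in both. Of the 115 that could be resolved into fragments, 54 had 1 fragment in each library, and 93 had 4 or fewer in WF1 and WF3 together. BnaC05g17490D and BnaA03g39700D are among the 54. The 4 transcripts are the 4 of the 123 that reached 10 FPKM, and their fragment numbers lay in the range of the 93. In the 4, 1 fragment was worth 5.09 to 17.5 FPKM, against a median of 0.273 FPKM over the 115. At so few fragments the minimum of 10 FPKM requires such values, so this difference carries no test.

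**Figure D3:**
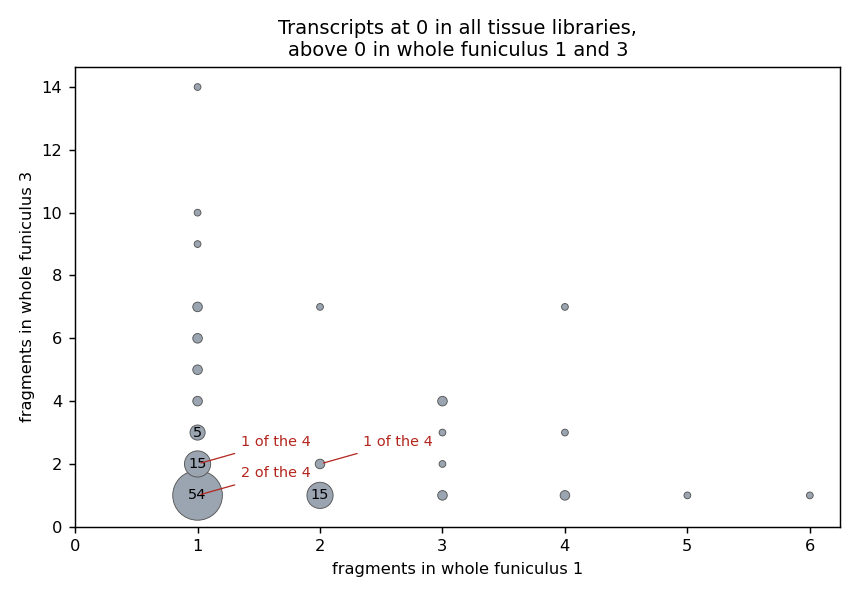
Fragments in WF1 (horizontal axis) and WF3 (vertical axis) of the 115 transcripts listed at 0 in all 8 tissue libraries, above 0 in WF1 and WF3 and resolved into whole fragments, with the area of a circle proportional to the number of transcripts. Of the 4 transcripts, 2 lie among the 54 with 1 fragment in each library, 1 has 1 and 2 fragments and 1 has 2 and 2.

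Among the 115 of this class that could be resolved into fragments, the transcripts with the most were not among the 4. BnaC06g38250D had 1 fragment in WF1, 3 in WF2 and 14 in WF3 (0.382, 4.66 and 4.06 FPKM), so that its fragments came mostly from WF3. The same held for BnaC03g17290D, with 1 fragment in WF1, 0 in WF2 and 10 in WF3 (0.187, 0 and 1.42 FPKM). BnaA04g21420D had 4, 2 and 7 fragments in WF1, WF2 and WF3 (0.550, 1.12 and 0.730 FPKM). All 3 were far below the minimum of 10 FPKM while resting on more fragments than any of the 4.

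Other transcripts in which 1 fragment had the same value as in the 4 were mostly found in the tissues. The value of BnaC05g17490D was shared, within 0.0002 of itself, by 8 transcripts, all 8 of them above 0 in at least 1 tissue library, with 2 to 11 fragments over the 8 libraries. Of 20 transcripts that shared the value of BnaCnng05710D, 19 were above 0 in a tissue library (median of 1.5 fragments, highest 33). Of 16 that shared that of BnaA09g48260D, 14 were (median of 3.5, highest 10). No other resolved transcript shared the value of BnaA03g39700D. A transcript is resolved only when at least 2 libraries are above 0, so these counts leave out transcripts seen once or never. As 8 of the 11 libraries are of tissues, most resolved transcripts are above 0 in one. Of the 426 with a value at least as large as that of BnaA09g48260D, 408 were. The rule had required the 4 to be low there, so the counts do not set them apart.

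Few fragments separated the 4 from most of their closest relatives in pattern. Leaving out a single tissue library would have added 11 transcripts to the 4, of which 8 were above 0 in that tissue library only, with 1 or 2 fragments in it. BnaC08g04690D is the nearest case, since 1 fragment was worth as much in it as in BnaCnng05710D: it had 1 fragment in WF1 (13.7 FPKM), 1 in WF3 (10.4 FPKM) and 1 in vasculature 3 (12.4 FPKM). BnaA03g45050D had 1 fragment in each of WF1, WF3 and cortex 2 (15.8, 11.97 and 16.2 FPKM), and BnaA07g17430D 1 in each of WF1, WF3 and vasculature 1 (35.7, 27.1 and 48.1 FPKM). The other 3 of the 11 were above 0 in more than 1 tissue library. BnaA09g53740D was above 0 in 3 of them, with 5 fragments in cortex 2. BnaC06g16850D was above 0 in 4, with 4 fragments in vasculature 2. BnaA09g52790D was above 0 in all 8, at 156 FPKM in vasculature 2, and was not resolved into fragments. All 11 were listed at 0 in WF2.

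The rule has 2 thresholds, and what lay just outside them differed in kind. Below the minimum of 10 FPKM, BnaC03g52890D was at 12.01 FPKM in WF1 and 9.11 FPKM in WF3, and BnaC06g23430D at 8.34 and 6.33 FPKM. Both were listed at 0 in WF2 and in all tissue libraries, and had 1 fragment each in WF1 and WF3, like BnaC05g17490D and BnaA03g39700D. Just inside this threshold lay BnaA09g48260D, BnaA03g39700D and BnaCnng05710D, with lower values of 10.2, 11.3 and 13.7 FPKM.

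At the ratio threshold there was a gap. Of the 6444 transcripts, the WF1 and WF3 values lay above all tissue libraries in 88 (1.37%), 2 had ratios from 1.5 to under 2, and none with a tissue library above 0 reached 2. The highest ratio outside was 1.77, of BnaC04g28190D, at 102 FPKM in WF1 and 108 FPKM in WF3 against 38.8 to 58.0 FPKM (median 48.8) in the tissues and 3.00 FPKM in WF2. BnaCnng57820D followed with 1.66 (20.004 and 22.2 FPKM in WF1 and WF3, 4.86 to 12.02 FPKM in the tissues) and BnaAnng41110D with 1.49 (40.2 and 36.2 FPKM, against 9.86 to 24.3 FPKM), and both were listed at 0 in WF2. In contrast to the 4, these 3 were above 0 in all 8 tissue libraries.

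**Figure D4:**
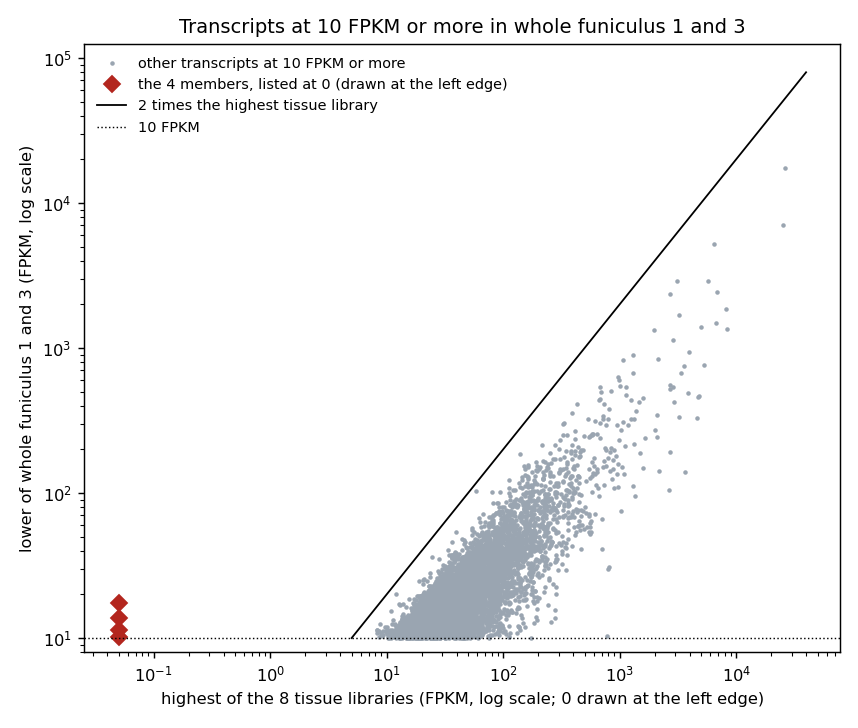
Lower value of WF1 and WF3 (vertical axis, FPKM, log scale) against the highest tissue library (horizontal axis, FPKM, log scale) for the 6444 transcripts at 10 FPKM or more in both. The 4 transcripts (red) are listed at 0 in the tissues and drawn at the left edge, and no other point reaches the line of 2 times the highest tissue library.

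None of the genes next to the 4 by identifier was at 0 in all tissue libraries and above 0 in WF1 and WF3. BnaC05g17500D was above 0 in all 8 tissue libraries (1.54 to 7.26 FPKM) and at 4.33 and 3.29 FPKM in WF1 and WF3, and BnaC05g17480D in 7 of them (0 to 5.38 FPKM), with 0.656 and 9.80 FPKM in WF1 and WF3. Beside BnaA09g48260D, BnaA09g48250D was at 4.10 to 9.68 FPKM in the tissues and at 5.46 and 6.13 FPKM in WF1 and WF3, and BnaA09g48270D at 0.356 to 1.48 FPKM, 0.554 and 0.999 FPKM. BnaA03g39690D and BnaCnng05700D were listed at 0 in all 11 libraries. BnaA03g39720D was above 0 in 1 tissue library only (0.291 FPKM), and BnaCnng05720D in 4 tissue libraries (at most 1.09 FPKM) and at 0.354 and 0.538 FPKM in WF1 and WF3. In WF2, 3 of these neighbours lay above all their tissue libraries: BnaC05g17500D at 19.1 FPKM, BnaA09g48270D at 5.92 FPKM and BnaCnng05720D at 2.88 FPKM. In WF1 and WF3 none of these 3 did, and 1 fragment was worth 5.3653 times as much in WF2 as in WF3. The other 5 were listed at 0 in WF2.

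Differences among the epidermis, cortex and vasculature could not be examined for the 4 transcripts. The filter for such a comparison, a tissue mean of 1 FPKM or more, kept 45300 transcripts and 0 of the 4, as all their tissue values were 0.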

How the data were processed

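RNA from laser-microdissected epidermis, cortex, vasculature and whole funiculus was amplified and sequenced as single-end reads. The authors aligned the reads with TopHat2 2.0.13 to the *B. napus* genome and computed FPKM with Cufflinks 2.2.1; the deposited FPKM were used without further scaling. As FPKM divides by length, 1 fragment is worth more in a short transcript. The effect of the amplification was not tested. All 11 columns were matched to a library by title. The members and lists were chosen with earlier results of these data known.

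The value of 1 fragment in each library, relative to whole funiculus 3, was the commonest quotient of values over transcripts above 0 in at most 4 libraries, without the 4 members. A transcript was resolved when all its values lay within 0.01 of a whole number of fragments, none over 20; the smallest could hold up to 4. The method was tested on simulated data, which held no reads shared between copies of a gene. That test allowed a part of the resolved transcripts to be given a wrong value of 1 fragment. As the method takes the smallest whole numbers that fit, the fragments of a transcript may be understated. Of 60174 transcripts above 0 in at least 2 libraries, 41.0% were resolved. Limits for a count of 0 use 3 fragments, and intervals are exact Poisson at 95%, both for counting error only. Replicates pool several plants; absolute depth per library is not in the table. Planned limma fits between tissues were not run, as no member had a tissue value above 0. The text names all members, the 3 transcripts below the ratio threshold, the closest below the minimum, and, chosen after their values were seen, neighbours by identifier and transcripts with similar fragment numbers. Markers, of which 1 is given for each tissue, came from transcripts the study had picked on these libraries. The RefSeq table (assembly Da-Ae) matched 3250 identifiers and 0 members, and 0 members fell in a keyword list. Python 3.11.15, numpy 2.4.6, pandas 2.3.3, scipy 1.17.1 and matplotlib 3.10.9 were used.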

Additional observations from a re-analysis of the deposited data

How the results depend on the processing

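The count of 4 transcripts was 6 with a minimum of 5 FPKM or a ratio of 1.5, 4 with a ratio of 3 or with libraries scaled to the same upper quartile, 0 with a minimum of 20 FPKM, and 2 with whole funiculus 2 also required (BnaA03g39700D and BnaA09g48260D). With at least 3 fragments in each of whole funiculus 1 and 3, a setting chosen after seeing the data, it was 0. Leaving out 1 library gave 4 to 123 transcripts, always including the 4: 7 without cortex 2, 8 without vasculature 2, 123 without whole funiculus 1 and 31 without whole funiculus 3. Of the 123, 90 had a tissue library above 0. The count of 2 transcripts above the tissues in whole funiculus 2 was 2 under each alternative, as every tissue value was 0. Depth limits each of these values. By the smallest whole numbers that fit, the 4 transcripts rest on 2 to 4 fragments in whole funiculus 1 and 3. No paired analysis was possible because no test was made: all tissue values of the 4 transcripts are 0, so the planned fits between tissues and their alternatives were not run.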

Other observations

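The same reading of steps gives other high FPKM values that rest on 1 to 5 fragments. BnaC05g44200D was at 34039 FPKM in epidermis 3, 22679 FPKM in cortex 2 and 29791 FPKM in vasculature 1 with 1 fragment in each, and was listed at 0 in the other 8 libraries. BnaA04g12010D was at 3482 FPKM in epidermis 3 and 1715 FPKM in whole funiculus 3, again with 1 fragment in each. BnaCnng78390D was at 156838 FPKM in whole funiculus 2 with 5 fragments and at 5846 FPKM in whole funiculus 3 with 1 fragment. In these 3 transcripts, as in the 4 of the report, the numbers are the smallest whole ones that fit the values. Of the 24677 resolved transcripts, 426 (1.73%) had a value of 1 fragment at least as large as that of BnaA09g48260D. Of these 426, 408 were above 0 in a tissue library, 118 in both whole funiculus 1 and 3, and 84 reached 10 FPKM in both.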
